A study of Mus musculus with 24 samples.

Results

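The 34 genes described here encode glucose and lactate transporters, the enzymes of glycolysis, the pyruvate dehydrogenase complex with its kinases, and enzymes of the pentose phosphate pathway. They were taken as a named list, and each was read through the probe set that carries its symbol alone, using the brightest probe set where a gene had several. Of the 34 genes, 32 were measured among the 19938 genes tested. Pfkfb1 and G6pdx were not analysed here. Transcripts were measured on 24 mouse gene arrays, and levels are array intensities. The cells were naive CD4 T cells, and TH2 cells cultured from them, of wild-type (WT) or Batf1/3DKO (DKO) 129SvEv mice, the latter named for the loss of the transcription factors Batf and Batf3. Each genotype was taken unstimulated at day 0, after 2 days of TH2 culture, and after 4 days of TH2 culture with 2.2 or with 10 ng/ml of soluble anti-CD3e, which stimulates cells through the T cell receptor. All cultured groups also received anti-CD28 held by plate-bound antibody, and the concentration of anti-CD3e used for day 2 is not stated. Each of these 8 groups held 3 arrays. The labels do not say whether the 3 were different animals or cultures, and the p-values then rest on a spread among samples that may be only technical. In such bulk RNA, fewer cells of a type and less RNA per cell cannot be told apart.

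Glycolysis turns glucose into pyruvate. Transporters bring glucose in, hexokinase traps it by phosphorylation, phosphofructokinase commits it, and the lower enzymes harvest ATP and NADH. Lactate dehydrogenase turns pyruvate into lactate, which monocarboxylate transporters export, while pyruvate dehydrogenase passes pyruvate to the mitochondria unless its kinases switch it off. The pentose phosphate pathway branches off after hexokinase and yields NADPH and ribose for nucleotides. Naive T cells are known to use little glucose, and activated T cells are known to switch to aerobic glycolysis, with Myc and Hif1a described as drivers of these genes.

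Promoter windows of 300 bases (250 before and 50 after the RefSeq start, build GRCm38.p6) were found for 31 of the 32 measured members, 44 windows in all. Slc2a3 had none. The core of the hypoxia response element, ACGTG, was searched on both strands and stood in 20 of the 44 windows (45.5%), against 19.6% of all 32851 windows. The E-box CACGTG, which contains that core, was in 5 (11.4%, against 7.15% of all). The AP-1 site TGANTCA was in 1 window, which is 2.27%, against 7.81% of all. No member window held either composite AP-1 and IRF element searched, TTTC placed 4 bases before TGANTNA (0.292% of all windows) or GAAA directly before TGANTCA (0.125%). Median GC content was 60.7% in member windows and 52.7% in all, and its part in these shares was not tested. The 4 windows below belong to genes that behaved differently in DKO cells: Pgk1 and the first Ldha window, 2 genes lower in DKO cells at 2.2 ng/ml, and Eno3 and Rpia, higher in DKO cells at 10 ng/ml. Capitals mark ACGTG or its reverse complement, and each window is written 5′ to 3′ on the gene's strand.
Pgk1, phosphoglycerate kinase (chrX:106186850-106187149, plus strand): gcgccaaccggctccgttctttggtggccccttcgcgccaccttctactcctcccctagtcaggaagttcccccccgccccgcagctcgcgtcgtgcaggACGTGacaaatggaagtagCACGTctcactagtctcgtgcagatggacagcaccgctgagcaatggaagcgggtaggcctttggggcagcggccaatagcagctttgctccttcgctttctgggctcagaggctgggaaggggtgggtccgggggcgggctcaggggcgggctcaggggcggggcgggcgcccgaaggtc
Ldha, lactate dehydrogenase A (chr7:46845554-46845853, plus strand): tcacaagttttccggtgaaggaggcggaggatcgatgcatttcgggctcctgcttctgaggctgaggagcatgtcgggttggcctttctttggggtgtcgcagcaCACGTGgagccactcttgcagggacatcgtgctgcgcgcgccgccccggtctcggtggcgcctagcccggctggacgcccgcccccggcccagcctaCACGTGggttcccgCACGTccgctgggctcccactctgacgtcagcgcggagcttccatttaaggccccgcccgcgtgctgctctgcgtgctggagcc
Eno3, enolase of muscle (chr11:70656926-70657225, plus strand): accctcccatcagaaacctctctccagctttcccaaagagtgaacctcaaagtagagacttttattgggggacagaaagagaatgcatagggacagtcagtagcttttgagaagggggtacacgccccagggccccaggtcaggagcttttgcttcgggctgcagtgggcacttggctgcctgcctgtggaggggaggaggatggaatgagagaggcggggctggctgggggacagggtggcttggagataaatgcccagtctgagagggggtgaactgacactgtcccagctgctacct
Rpia, ribose phosphate isomerase (chr6:70792126-70792425, minus strand): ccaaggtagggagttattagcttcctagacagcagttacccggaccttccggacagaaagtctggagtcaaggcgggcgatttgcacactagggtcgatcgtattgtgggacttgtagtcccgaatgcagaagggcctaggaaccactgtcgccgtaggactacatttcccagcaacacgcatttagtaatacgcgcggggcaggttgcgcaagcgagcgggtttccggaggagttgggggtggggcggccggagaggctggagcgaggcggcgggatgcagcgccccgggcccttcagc
The Pgk1 window held 2 matches and the Ldha window 5, counting both strands of its E-boxes, while the Eno3 and Rpia windows held 0. The printed windows do not stand for their groups: Tpi1, Pfkl and Pfkp, also lower in DKO cells at 2.2 ng/ml, held 0 in their windows, as did the second Ldha window and 1 of 2 Pkm windows, and of Pdk2, higher in DKO cells at day 2, 1 of 2 windows held 2. A match describes letters in a window and not a bound site.

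Batf, read first to check the labels, had group means of 31.2 to 46.5 in DKO cells and of 135 to 1595 in WT cells, with no array of one genotype within the range of the other. All 9 T cell identity genes lay above the median probe set (an intensity of 28.6, used here as a guide to background) in every group. Of 4 B cell markers at least 3, of 10 myeloid and dendritic markers at least 6, and of 5 CD8 and NK markers 4 lay at or below it in every group, as did at least 2 of 4 granulocyte markers. The summed intensity of the 10 myeloid and dendritic markers ran from 184 to 210 in WT cells and from 499 to 568 in DKO cells at 10 ng/ml, a difference that lay mainly in Ctss and Cd74. Of the 10, 8 lay at or below 28.6 in WT cells and 7 in DKO cells at 10 ng/ml. The 4 B cell markers summed to 58.3 to 64.1 and 104 to 149 in the same groups. The myeloid and dendritic sums of WT and DKO cells were also apart at day 0 (514 to 547 and 610 to 685) and day 2 (207 to 232 and 303 to 457), and overlapped at 2.2 ng/ml (353 to 454 and 426 to 512). The B cell sums were apart at day 2 (46.04 to 54.8 and 62.5 to 75.9) and 2.2 ng/ml (63.4 to 69.7 and 81.2 to 91.2), and overlapped at day 0. The sums of 5 naive T cell markers were apart at day 2 (1671 to 1768 in WT and 1984 to 2548 in DKO cells). At 2.2 ng/ml these sums overlapped (1871 to 2879 in WT and 2715 to 3599 in DKO cells), as they did at day 0 and 10 ng/ml. The part of these markers in the genotype differences was not tested. Over all probe sets, log2 values of arrays of one group correlated at 0.971 to 0.984.

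The 32 members together stood lowest in naive cells and highest after 4 days with 10 ng/ml. Their geometric mean was 80.5 to 93.2 on the 3 naive WT arrays, 205 to 232 at day 2, 180 to 211 at 2.2 ng/ml and 244 to 297 at 10 ng/ml. The DKO arrays gave 91.3 to 95.2, 171 to 183, 128 to 150 and 263 to 273 in the same order. As a share of WT, DKO cells stood at 105.8% at day 0 and 79.3% at day 2. After 4 days the share was 71.1% with 2.2 ng/ml and 98.4% with 10 ng/ml, and the WT and DKO arrays overlapped at day 0 and 10 ng/ml but not at day 2 or 2.2 ng/ml. The group geometric means over all genes stayed between 38.0 and 39.2.

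**Figure D1:**
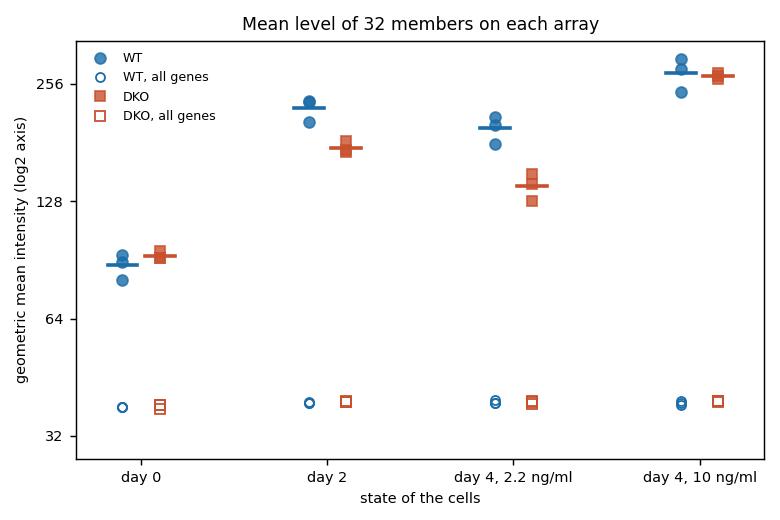
Geometric mean intensity of the 32 members on each array (filled points, log2 axis; bars are group geometric means) and of all genes (open points) for WT (blue circles) and DKO (orange squares) cells in the 4 states. DKO cells stood at 71.1% of WT at 2.2 ng/ml and at 98.4% at 10 ng/ml, while group means over all genes stayed between 38.0 and 39.2.

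Activation raised most members in both genotypes. In WT cells 23 of 32 rose and 4 fell at day 2, 23 rose and 2 fell at 2.2 ng/ml, and 25 rose and 1 fell at 10 ng/ml, each against day 0 (limma, Benjamini-Hochberg over all genes, adjusted p under 0.05). Among all genes, 19.7%, 16.1% and 18.4% rose and 20.5%, 13.1% and 18% fell in these comparisons. In DKO cells 21 rose and 1 fell at day 2, 17 rose and 1 fell at 2.2 ng/ml, and 23 rose and 1 fell at 10 ng/ml, against 15.3%, 11.6% and 16.4% of all genes rising and 13.3%, 8.28% and 14.3% falling. The median member differed from day 0 by 1.31, 1.10 and 1.53 on the log2 scale in WT cells and by 0.82, 0.53 and 1.70 in DKO cells, and in these 6 comparisons the median of all genes lay between -0.11 and -0.01. The comparisons within a genotype share their day 0 arrays. In all 6 of them 14 members rose: Slc16a1, Hk2, Pfkm, Pfkp, Aldoa, Tpi1, Pgk1, Pgam1, Eno3, Pkm, Ldha, Pdk3, Pgd and Tkt. The share of all genes that rose in all 6 was not computed, so this count has no background beside it. In DKO cells at 2.2 ng/ml the call of Hk2 was lost without DKO day 0 replicate 2 or DKO 2.2 ng/ml replicate 3 (adjusted p 0.00116 to 0.0619 over the alternatives), that of Pfkp without DKO day 0 replicate 1, 2 or 3 or DKO 2.2 ng/ml replicate 2 or 3 (adjusted p 0.0201 to 0.551 over the alternatives), and that of Ldha without DKO day 0 replicate 1 or DKO 2.2 ng/ml replicate 2 or 3 (adjusted p 0.000376 to 0.359 over the alternatives). Pfkp and Ldha also lost these calls under cyclic loess, under quantile normalization and in a fit of only the groups compared. The rise of Pfkp at day 2 in DKO cells was lost under cyclic loess (adjusted p = 0.0876, limma). Pfkfb2 fell in all 6, Hk1 and Pdhb passed the test in none, and Pdk2 was called lower in 1 and higher in 2, calls that were each lost without single arrays.

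**Figure D2:**
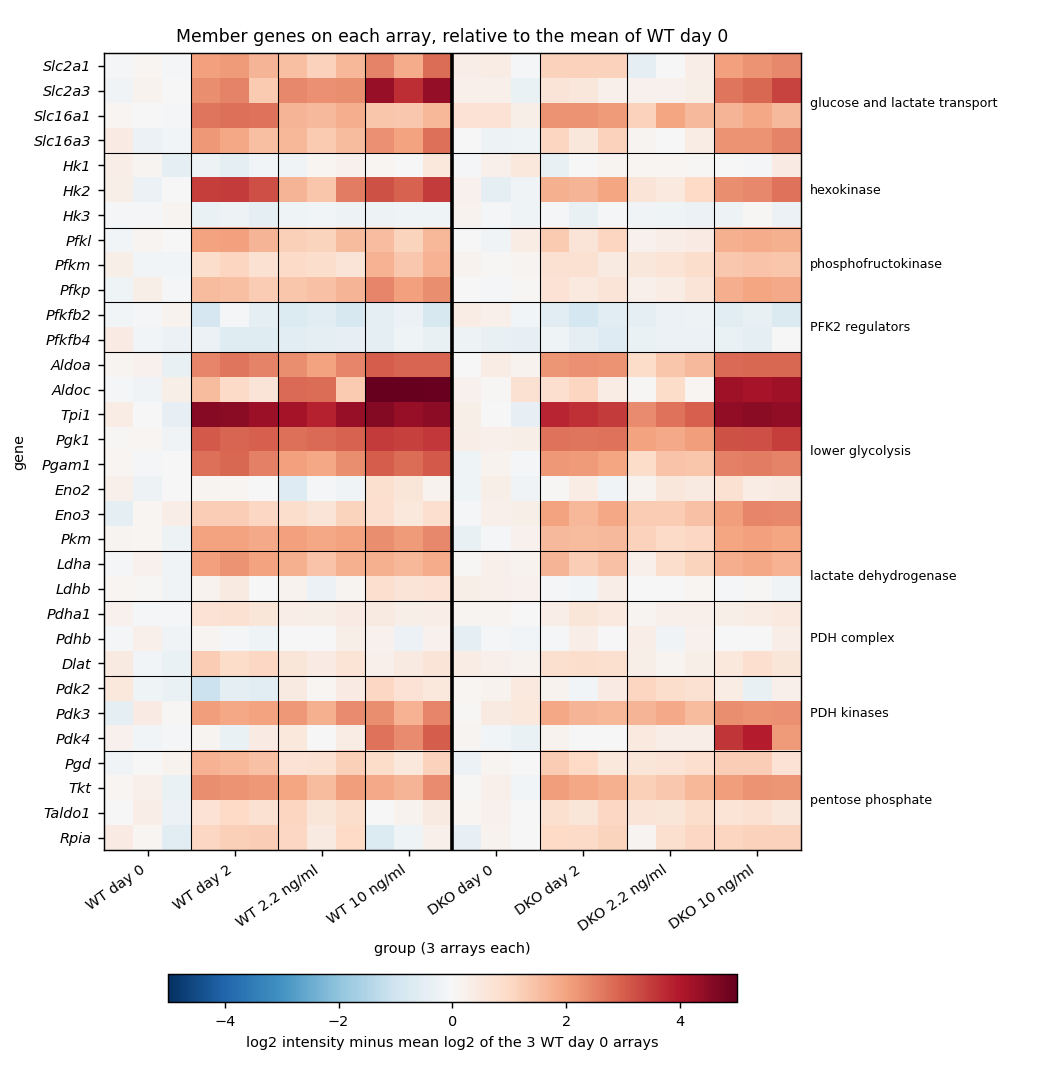
Log2 intensity of each member on each of the 24 arrays minus the mean log2 of the 3 WT day 0 arrays, with members in rows by role and arrays in columns by group. The widest rises were those of Tpi1 in all cultured groups and of Aldoc at 10 ng/ml, Pfkfb2 was lower in cultured cells, and the DKO arrays at 2.2 ng/ml are paler than the WT arrays for most transport and glycolysis rows.

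Between genotypes at day 0, 0 of 32 members passed in limma, where 0.0652% of all genes did, and 3 had an unadjusted p under 0.05 (Slc16a1 and Pgk1 above WT, Pfkfb4 below). The share of all genes at that unadjusted threshold was not computed. At day 2, 10 members were lower and 2 higher in DKO cells (1.68% of all genes lower and 1.03% higher). At 2.2 ng/ml 13 were lower and 1 higher (2.06% and 1.65%), and 7 of the 13 were lower by at least 2-fold. At 10 ng/ml 5 were lower and 3 higher (6.09% and 6.68%). Of the 10 members lower at day 2, 9 (90.0%) were also lower at 2.2 ng/ml, where they made up 69.2% of the 13. No figure over all genes is given for the 2-fold count or for this overlap. Hk2, Pgam1 and Slc2a3 were lower in all 3 cultured states. In these 3 states, taken in order, the median member differed by -0.28, -0.26 and -0.01 on the log2 scale, and the median of all genes by 0.04, 0.0014 and 0.03.

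These counts differed in how far they leaned on single arrays. At 2.2 ng/ml all 13 lower calls were kept when any of the 24 arrays was left out, and Eno2, the 1 higher call, was not. At day 2 the 12 calls became 4 without WT day 2 replicate 1, 5 without DKO day 2 replicate 3, and 7 without WT day 2 replicate 2 or DKO day 2 replicate 2, and Slc2a3, Hk2, Pfkl and Pfkp were kept without each array. At 10 ng/ml the 8 calls became 4 without WT 10 ng/ml replicate 1 or DKO 10 ng/ml replicate 2 and 5 without DKO 10 ng/ml replicate 1, and Slc2a3, Eno3, Ldhb and Rpia were kept without each array.

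**Figure D3:**
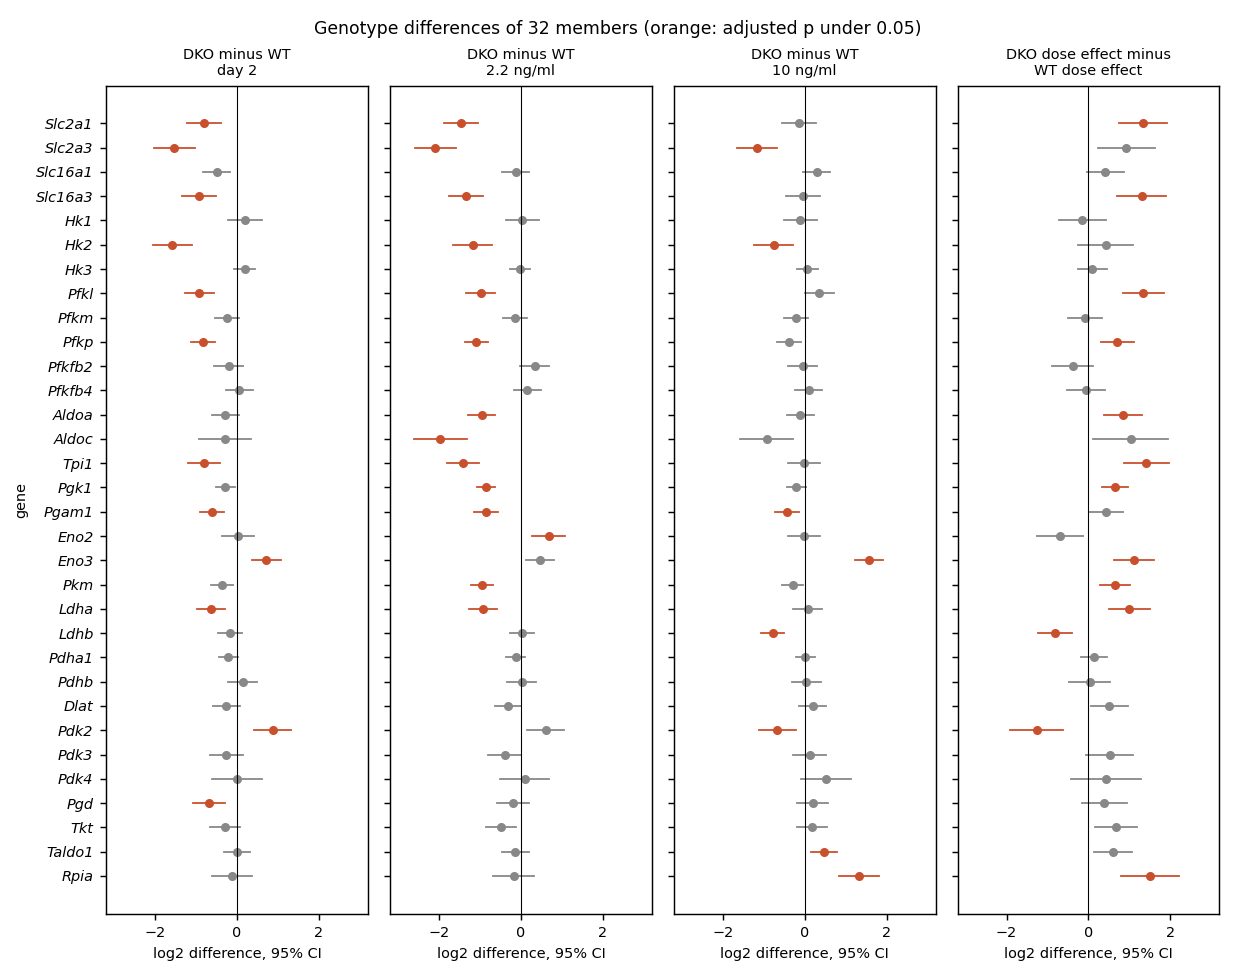
Log2 difference between DKO and WT cells with its 95% confidence interval for each of the 32 members at day 2, 2.2 ng/ml and 10 ng/ml, and, in the right panel, the dose effect (10 against 2.2 ng/ml) in DKO cells minus that in WT cells. Orange marks an adjusted p under 0.05 over all 19938 genes: 12, 14, 8 and 13 members. Most orange points lie left of 0 at day 2 and 2.2 ng/ml, and right of 0 in the dose panel.

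Raising anti-CD3e from 2.2 to 10 ng/ml at day 4 raised 13 members and lowered 2 in WT cells (7.64% and 7.52% of all genes). In DKO cells it raised 17 and lowered 1 (4.47% and 3.68%). The median dose effect over the members was 0.24 in WT and 0.73 in DKO cells on the log2 scale. Of the 13 members raised in WT cells, 11 (84.6%) were raised in DKO cells, where they made up 64.7% of the 17. The same overlap over all genes was not computed. The test of the difference between the genotypes in this dose effect called 11 members with a larger value in DKO cells and 2 with a smaller one (3.56% and 3.38% of all genes). Of these 13, 10 were kept when any array was left out, and Pfkp, Aldoa and Pkm were not.

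The 4 transporters rose on activation in WT cells, and Slc2a3 had the widest gap between genotypes of all members at the low dose. Slc2a3, a high-affinity glucose transporter, read 58.5, 75.95 and 67.6 (day 0), 339, 371 and 165 (day 2), 357, 322 and 332 (2.2 ng/ml) and 1357, 866 and 1404 (10 ng/ml) in WT cells. In DKO cells the values were 79.99, 79.2 and 52.999 (day 0), 106, 100.2 and 80.9 (day 2), 77.9, 77.1 and 82.5 (2.2 ng/ml) and 433, 493 and 689.99 (10 ng/ml). At 2.2 ng/ml the DKO arrays overlapped the naive DKO arrays, at day 2 they lay just above them, and in all 3 cultured states every DKO array lay below every WT array. Slc2a3 was 2.89-fold (95% CI 2.05 to 4.07) lower in DKO cells at day 2, 4.25-fold (95% CI 3.02 to 5.99) at 2.2 ng/ml and 2.24-fold (95% CI 1.59 to 3.15) at 10 ng/ml (adjusted p = 0.000329, 2.38e-06 and 0.00123, limma). Its rise from day 0 to 10 ng/ml was 17.6-fold (95% CI 12.5 to 24.8) in WT and 7.602-fold (95% CI 5.398 to 10.7) in DKO cells, and the genotypes differed in that rise (-1.21 on the log2 scale, adjusted p = 0.0285). Slc2a3 lost this last call without WT day 0 replicate 1, WT 10 ng/ml replicate 1 or 3, DKO day 0 replicate 1 or 2 or DKO 10 ng/ml replicate 1 or 2 (adjusted p 0.00492 to 0.0925 over the alternatives). The dose effect itself, 3.51-fold in WT and 6.68-fold in DKO cells, gave a genotype difference that did not pass (0.93 (95% CI 0.23 to 1.63) on the log2 scale).

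Slc2a1, the main basal glucose transporter, read 191, 211 and 189.7 (day 0), 807, 855 and 641 (day 2), 553, 438 and 617 (2.2 ng/ml) and 1089, 720.1 and 1363 (10 ng/ml) in WT cells. DKO cells gave 250.03, 255 and 189 (day 0), 435, 434 and 443 (day 2), 145, 200.5 and 246 (2.2 ng/ml) and 809, 946 and 1047 (10 ng/ml). At 2.2 ng/ml the DKO arrays were back among naive levels, 2.76-fold (95% CI 2.07 to 3.67) below WT (adjusted p = 2.91e-05), while at 10 ng/ml the genotypes overlapped. The dose effect was 1.93-fold (95% CI 1.45 to 2.56) in WT and 4.82-fold (95% CI 3.62 to 6.42) in DKO cells, and on the log2 scale these differed by 1.32 ± 0.28 (± SE, as for all log2 differences written so; adjusted p = 0.00366). The day 2 difference, 1.74-fold lower in DKO cells (adjusted p = 0.0276), was lost without WT day 2 replicate 1 or 2 or DKO day 2 replicate 1, 2 or 3 (adjusted p 0.0105 to 0.131 over the alternatives).

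Slc16a3, a monocarboxylate transporter that exports lactate, read 73.01, 45.1 and 49.2 (day 0), 245, 209 and 153 (day 2), 172, 136 and 162 (2.2 ng/ml) and 269, 221 and 369.7 (10 ng/ml) in WT cells. DKO values were 54.4, 45.3 and 46.7 (day 0), 114, 81.2 and 119.6 (day 2), 60.6, 54.4 and 70.96 (2.2 ng/ml) and 260.3, 258 and 301 (10 ng/ml). Every DKO array lay below every WT array at day 2 and 2.2 ng/ml, and the ranges overlapped at 10 ng/ml. DKO cells were 2.52-fold (95% CI 1.89 to 3.37) lower at 2.2 ng/ml (adjusted p = 0.000113) and 1.92-fold lower at day 2 (adjusted p = 0.00884), the latter lost without WT day 2 replicate 1 or DKO day 2 replicate 2 (adjusted p 0.00335 to 0.0765 over the alternatives). The dose raised Slc16a3 1.799-fold in WT and 4.42-fold in DKO cells, and this difference passed the test (1.30 ± 0.29, adjusted p = 0.00483).

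Slc16a1, the other monocarboxylate transporter, was highest at day 2. WT arrays read 26.8, 25.1 and 23.001 (day 0), 158, 166 and 165 (day 2), 80.1, 75.7 and 88.3 (2.2 ng/ml) and 65.4, 63.4 and 78.4 (10 ng/ml), and DKO arrays 41.04, 41.2 and 30.8 (day 0), 118, 119.6 and 109 (day 2), 55.6, 98.2 and 75.9 (2.2 ng/ml) and 81.7, 96.2 and 75.9 (10 ng/ml). All WT day 2 arrays lay above all other arrays. Its rise from day 0 to day 2 was 6.54-fold (95% CI 5.21 to 8.2003) in WT and 3.096-fold (95% CI 2.47 to 3.88) in DKO cells, from naive levels that lay below 28.6 in WT and above it in DKO cells. The genotypes differed in that rise (-1.08 ± 0.22 on the log2 scale, adjusted p = 0.0156), a call lost without DKO day 0 replicate 2 (adjusted p 0.00469 to 0.0506 over the alternatives). No direct genotype difference passed the test for Slc16a1.

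Among the 3 hexokinases, Hk2, the inducible form, rose in all 6 activation comparisons. In WT cells Hk2 read 23.3, 15.7 and 18.7 (day 0), 209, 213 and 177 (day 2), 61.4, 49.4 and 113 (2.2 ng/ml) and 174, 148 and 217 (10 ng/ml). In DKO cells the arrays gave 21.8, 13.5 and 16.9 (day 0), 65.8, 60.8 and 73.9 (day 2), 29.7, 26.5 and 37.98 (2.2 ng/ml) and 93.8, 101 and 123 (10 ng/ml). The rises of 10.5-fold at day 2 and 9.35-fold at 10 ng/ml in WT cells started from naive arrays that all lay below 28.6. Every DKO array lay below every WT array in each cultured state. DKO cells were 2.99-fold (95% CI 2.14 to 4.16) lower at day 2, 2.26-fold (95% CI 1.62 to 3.14) lower at 2.2 ng/ml and 1.68-fold (95% CI 1.21 to 2.35) lower at 10 ng/ml (adjusted p = 0.00016, 0.00262 and 0.0314). The difference at 10 ng/ml was lost without WT 10 ng/ml replicate 1 or 3 or DKO 10 ng/ml replicate 1 or 2 (adjusted p 0.00643 to 0.148 over the alternatives). The smaller rise to day 2 in DKO cells (-1.43 ± 0.33, adjusted p = 0.0304) was lost without WT day 0 replicate 2 or 3, WT day 2 replicate 1 or 2, DKO day 0 replicate 1 or 3 or DKO day 2 replicate 2 (adjusted p 0.00489 to 0.0828 over the alternatives). The dose raised Hk2 2.54-fold in WT and 3.396-fold in DKO cells, a difference that did not pass (0.42 (95% CI -0.25 to 1.10) on the log2 scale).

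Hk1, the constitutive hexokinase, passed in none of the 17 comparisons through its brightest probe set, whose group means ran from 1170 to 1686. Its other probe set, with a mean of 185, gave another picture: it was 2.16-fold higher at 10 ng/ml than at day 0 in WT cells (adjusted p = 9.36e-07 in a fit of all probe sets) and in DKO cells at 10 ng/ml it differed from WT by -0.50 on the log2 scale (adjusted p = 0.0187). The level of Hk1 is therefore uncertain here. Hk3, the myeloid-rich form, stayed at or below 28.6 throughout. It read 18.7, 19.1 and 21.97 at day 0 and 15.998, 16.5 and 14.2 at day 2 in WT cells, a fall (adjusted p = 0.022) that was lost without WT day 0 replicate 3 or WT day 2 replicate 3 (adjusted p 0.0164 to 0.377 over the alternatives).

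All 3 phosphofructokinase genes rose in WT cells in every cultured state. Pfkp, the platelet-type subunit, read 208, 293 and 226 (day 0), 714, 689 and 581 (day 2), 620.02, 670.3 and 769.9 (2.2 ng/ml) and 1303, 999 and 1189 (10 ng/ml) in WT cells. The DKO arrays gave 246, 233 and 249.6 (day 0), 392, 337 and 379 (day 2), 287, 312 and 373 (2.2 ng/ml) and 844, 938 and 881 (10 ng/ml). In the 3 cultured states no DKO array reached the lowest WT array, and DKO cells were lower by 1.79-fold (95% CI 1.46 to 2.18) at day 2 (adjusted p = 0.000686) and 2.12-fold (95% CI 1.74 to 2.59) at 2.2 ng/ml (adjusted p = 1.09e-05), while the 1.305-fold gap at 10 ng/ml did not pass (adjusted p = 0.0742; it passed under 4 of 34 alternatives). The dose raised Pfkp 1.69-fold in WT and 2.75-fold in DKO cells (0.70 ± 0.20, adjusted p = 0.0278), a difference lost without WT 2.2 ng/ml replicate 3, WT 10 ng/ml replicate 2, DKO 2.2 ng/ml replicate 1 or 2 or DKO 10 ng/ml replicate 2 or 3 (adjusted p 0.0152 to 0.0896 over the alternatives). The smaller rise to day 2 in DKO cells (-0.85 ± 0.20, adjusted p = 0.0304) was lost without each of 9 of the 24 arrays, most of all WT day 2 replicate 1 (adjusted p 0.0103 to 0.0918 over the alternatives).

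Pfkl, the liver-type subunit, differed from Pfkp in that it peaked at day 2 in WT cells and at 10 ng/ml in DKO cells. WT arrays read 52.2, 62.3 and 56.2 (day 0), 228, 238 and 187 (day 2), 129, 123 and 172 (2.2 ng/ml) and 166, 124 and 178 (10 ng/ml). DKO arrays read 55.4, 50.5 and 72.7 (day 0), 139.6, 89.03 and 119 (day 2), 65.2, 70.7 and 76.3 (2.2 ng/ml) and 192, 205 and 194 (10 ng/ml). DKO cells were below WT on every array at day 2 and 2.2 ng/ml (1.898-fold (95% CI 1.48 to 2.43) and 1.98-fold (95% CI 1.55 to 2.53) lower, adjusted p = 0.00241 and 0.000659), and above WT on every array at 10 ng/ml, where the difference did not pass (0.36 (95% CI 0.00 to 0.71) on the log2 scale). The dose effect was 2.79-fold (95% CI 2.18 to 3.57) in DKO cells (adjusted p = 1.96e-06), against a log2 value of 0.14 (95% CI -0.21 to 0.50) in WT cells that did not pass. The 2 dose effects differed (1.34 ± 0.24, adjusted p = 0.000751). The smaller rise of Pfkl to day 2 in DKO cells (-0.98 ± 0.24, adjusted p = 0.0494) was lost without each of 16 of the 24 arrays, most of all DKO day 2 replicate 2 (adjusted p 0.0222 to 0.137 over the alternatives). Pfkm, the muscle-type subunit, rose 3.04-fold in WT and 2.404-fold in DKO cells at 10 ng/ml and passed no genotype test.

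The 2 measured genes for the enzymes that make and remove the sugar bisphosphate activating phosphofructokinase fell in WT cells at day 2 and 2.2 ng/ml. Pfkfb2 read 67.9, 71.8 and 84.3 (day 0), 41.8, 71.6 and 54.3 (day 2), 46.8, 49.8 and 43.03 (2.2 ng/ml) and 54.2, 61.4 and 43.1 (10 ng/ml) in WT cells. DKO cells gave 94.96, 88.9 and 67.8 (day 0), 50.7, 40.7 and 51.2 (day 2), 53.7, 60.8 and 62.7 (2.2 ng/ml) and 50.4, 56.9 and 45.4 (10 ng/ml). Naive arrays were the highest in each genotype, apart from an overlap with WT day 2 replicate 2. The falls in the 6 activation comparisons were 1.36-fold (WT day 2) to 1.76-fold (DKO day 2). Of these, the fall at day 2 in WT cells was lost without WT day 0 replicate 2 or 3 or WT day 2 replicate 1 or 3 (adjusted p 0.00537 to 0.276 over the alternatives), and that at 10 ng/ml without WT day 0 replicate 3 or WT 10 ng/ml replicate 3 (adjusted p 0.00206 to 0.142 over the alternatives). At 2.2 ng/ml in DKO cells (adjusted p = 0.0442) it was lost without each of 9 of the 24 arrays, most of all DKO day 0 replicate 1 (adjusted p 0.00769 to 0.19 over the alternatives). Group means of Pfkfb4 lay at or below 28.6 in all groups. WT values were 35.7, 24.4 and 21.6 at day 0 against 21.4, 17.6 and 17.4 at day 2, with WT day 0 replicate 1 the highest of all arrays. Its called fall at day 2 in WT cells (adjusted p = 0.0131) was lost without WT day 0 replicate 1 or WT day 2 replicate 3 (adjusted p 0.00285 to 0.163 over the alternatives), and that at 2.2 ng/ml (adjusted p = 0.029) without WT day 0 replicate 1 or WT 2.2 ng/ml replicate 1, 2 or 3 (adjusted p 0.00761 to 0.246 over the alternatives).

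The 8 genes of lower glycolysis held the widest rises. Tpi1, triosephosphate isomerase, read 101, 80.3 and 58.9 (day 0), 1846, 1774 and 1526 (day 2), 1381, 1117 and 1598 (2.2 ng/ml) and 1871, 1585 and 1747 (10 ng/ml) in WT cells. DKO values were 95.7, 76.6 and 58.5 (day 0), 1092, 969.9 and 889 (day 2), 407, 510.3 and 619.8 (2.2 ng/ml) and 1702, 1790.3 and 1672 (10 ng/ml). All cultured arrays lay above all naive arrays, and at 10 ng/ml the genotypes overlapped. The rise to 10 ng/ml was 22.1-fold (95% CI 16.9 to 28.98) in WT and 22.8-fold (95% CI 17.4 to 29.9) in DKO cells. At 2.2 ng/ml DKO cells reached a 6.69-fold rise and lay 2.68-fold (95% CI 2.04 to 3.503) below WT (adjusted p = 1.91e-05). The day 2 difference, 1.74-fold (adjusted p = 0.0178), was lost without WT day 2 replicate 1 or 2 or DKO day 2 replicate 2 or 3 (adjusted p 0.00832 to 0.091 over the alternatives). The dose raised Tpi1 3.41-fold (95% CI 2.604 to 4.46) in DKO cells, whereas the WT value was 0.36 (95% CI -0.03 to 0.75) on the log2 scale and did not pass. The dose effects differed by 1.41 ± 0.27 (adjusted p = 0.00112).

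Pgk1, phosphoglycerate kinase, whose promoter window is printed above, had the smallest p of all members for WT activation at 10 ng/ml (11.2-fold (95% CI 9.56 to 13.04), adjusted p = 8.79e-18). WT arrays read 389.6, 399 and 325 (day 0), 3093, 2776 and 2932 (day 2), 2484, 2616 and 2878 (2.2 ng/ml) and 4186, 3913 and 4289 (10 ng/ml). DKO arrays read 471, 444 and 450.4 (day 0), 2415, 2392 and 2407 (day 2), 1486, 1375 and 1555 (2.2 ng/ml) and 3331, 3419 and 4068 (10 ng/ml). The genotypes did not overlap at day 2 or 2.2 ng/ml, and overlapped at 10 ng/ml. DKO cells were 1.81-fold (95% CI 1.55 to 2.11) lower at 2.2 ng/ml (adjusted p = 1.07e-05), and the dose effect was 1.55-fold in WT against 2.44-fold in DKO cells (0.65 ± 0.15, adjusted p = 0.00831). Pgk1 had 3 probe sets, of which 1 gave the same values as the brightest and adds no separate reading. The remaining one, with a mean of 1511, differed by -0.83 between genotypes at 2.2 ng/ml (adjusted p = 8.87e-06, limma fit of all probe sets).

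Aldoa, the main aldolase, read 551, 580.3 and 385 (day 0), 2714, 3197 and 2779 (day 2), 2480.3, 2031 and 2669 (2.2 ng/ml) and 4082, 3756 and 3764 (10 ng/ml) in WT cells. In DKO cells the arrays gave 491, 647 and 566 (day 0), 2266, 2448 and 2359.7 (day 2), 947, 1284 and 1513 (2.2 ng/ml) and 3551, 3626 and 3612 (10 ng/ml). Every DKO array lay below every WT array in the 3 cultured states, and the difference passed the test at 2.2 ng/ml, where DKO cells were 1.94-fold (95% CI 1.54 to 2.44) lower (adjusted p = 0.000409). Its dose effect was 1.63-fold in WT and 2.93-fold in DKO cells, a difference (0.85 ± 0.23, adjusted p = 0.0202) lost without WT 2.2 ng/ml replicate 1 or 3 or DKO 2.2 ng/ml replicate 1 (adjusted p 0.00695 to 0.0785 over the alternatives). Pkm, pyruvate kinase of muscle type, read 2108, 1954 and 2045 in WT and 1149, 992 and 1041 in DKO cells at 2.2 ng/ml, and 2580.02, 2249 and 2702 and 2003, 2092 and 2031 at 10 ng/ml. DKO arrays lay below WT arrays at both doses, and the difference passed at 2.2 ng/ml (1.92-fold (95% CI 1.6003 to 2.31), adjusted p = 2.63e-05) and not at 10 ng/ml (-0.29 (95% CI -0.56 to -0.03) on the log2 scale). Its other probe set, with a mean of 987, passed at 10 ng/ml (-0.36, adjusted p = 0.0416) and at day 2 (-0.45, adjusted p = 0.0352, limma fit of all probe sets). The larger dose effect in DKO cells (0.65 ± 0.18, adjusted p = 0.0278) was lost without WT 2.2 ng/ml replicate 1 or 3, WT 10 ng/ml replicate 2, DKO 2.2 ng/ml replicate 2 or 3 or DKO 10 ng/ml replicate 2 or 3 (adjusted p 0.00441 to 0.0828 over the alternatives). Pgam1, phosphoglycerate mutase, was lower in DKO cells in all 3 cultured states (1.53-fold, 1.81-fold and 1.36-fold). It kept the call without each array only at 2.2 ng/ml. Of its 2 other probe sets, 1 gave the same values as the brightest and adds no separate reading. The other passed at day 2 and 2.2 ng/ml but not at 10 ng/ml (-0.49, adjusted p = 0.0728, limma fit of all probe sets). At 10 ng/ml (adjusted p = 0.0413) the call was lost without WT 10 ng/ml replicate 1 or 3 or DKO 10 ng/ml replicate 1, 2 or 3 (adjusted p 0.00499 to 0.138 over the alternatives), and at day 2 (adjusted p = 0.0152) without WT day 2 replicate 1 or 2 or DKO day 2 replicate 3 (adjusted p 0.00751 to 0.0978 over the alternatives).

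Aldoc, the brain-type aldolase, responded most to the dose. It read 22.7, 21.2 and 29.4 (day 0), 72.1, 47.2 and 37.4 (day 2), 174, 168 and 60.3 (2.2 ng/ml) and 942, 863 and 739 (10 ng/ml) in WT cells. The DKO arrays gave 28.3, 25.2 and 41.2 (day 0), 43.2, 51.5 and 30.9 (day 2), 25.3, 45.6 and 25.7 (2.2 ng/ml) and 461, 417 and 453 (10 ng/ml). Both genotypes at 10 ng/ml stood far above every other group, and WT 2.2 ng/ml replicate 3 lay well below the other two arrays of its group. The dose raised Aldoc 6.98-fold (95% CI 4.46 to 10.9) in WT and 14.3-fold (95% CI 9.15 to 22.4) in DKO cells, a difference that did not pass (1.04 (95% CI 0.12 to 1.95) on the log2 scale). DKO cells were 3.91-fold (95% CI 2.495 to 6.11) lower at 2.2 ng/ml (adjusted p = 0.000222). Every DKO array at 10 ng/ml was below every WT array, yet the 1.904-fold difference did not pass (adjusted p = 0.0521). It passed under 14 of 34 alternatives (adjusted p 0.000835 to 0.166 over all of them).

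The 2 measured enolases were the members of lower glycolysis called higher in DKO cells. Eno3, the muscle-type enolase, read 63.5, 91.5 and 108 (day 0), 199, 204 and 175 (day 2), 159, 135 and 185 (2.2 ng/ml) and 154, 124 and 152 (10 ng/ml) in WT cells. DKO cells gave 81.8, 103 and 104 (day 0), 349.5, 274 and 328 (day 2), 208, 209 and 238 (2.2 ng/ml) and 365, 461 and 452 (10 ng/ml). Every DKO array lay above every WT array in the 3 cultured states. At 10 ng/ml Eno3 was 2.97-fold (95% CI 2.33 to 3.78) higher in DKO cells (adjusted p = 1.96e-07), and its rise from day 0 was 1.67-fold in WT and 4.42-fold in DKO cells (1.41 ± 0.24, adjusted p = 0.000278). The dose effects differed too (1.11 ± 0.24, adjusted p = 0.00384). At day 2 the 1.64-fold difference (adjusted p = 0.0178) was lost without WT day 2 replicate 1 or 3 or DKO day 2 replicate 1 or 3 (adjusted p 0.00588 to 0.0911 over the alternatives). Eno2, the neuronal enolase, had group means at or below 28.6 throughout. It read 10.2, 15.5 and 14.1 in WT and 17.99, 23.6 and 21.6 in DKO cells at 2.2 ng/ml, a call (adjusted p = 0.0463) that was lost without each of 12 of the 24 arrays, most of all WT 2.2 ng/ml replicate 1 (adjusted p 0.0128 to 0.296 over the alternatives). The ubiquitous enolase Eno1 was not analysed here.

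**Figure D4:**
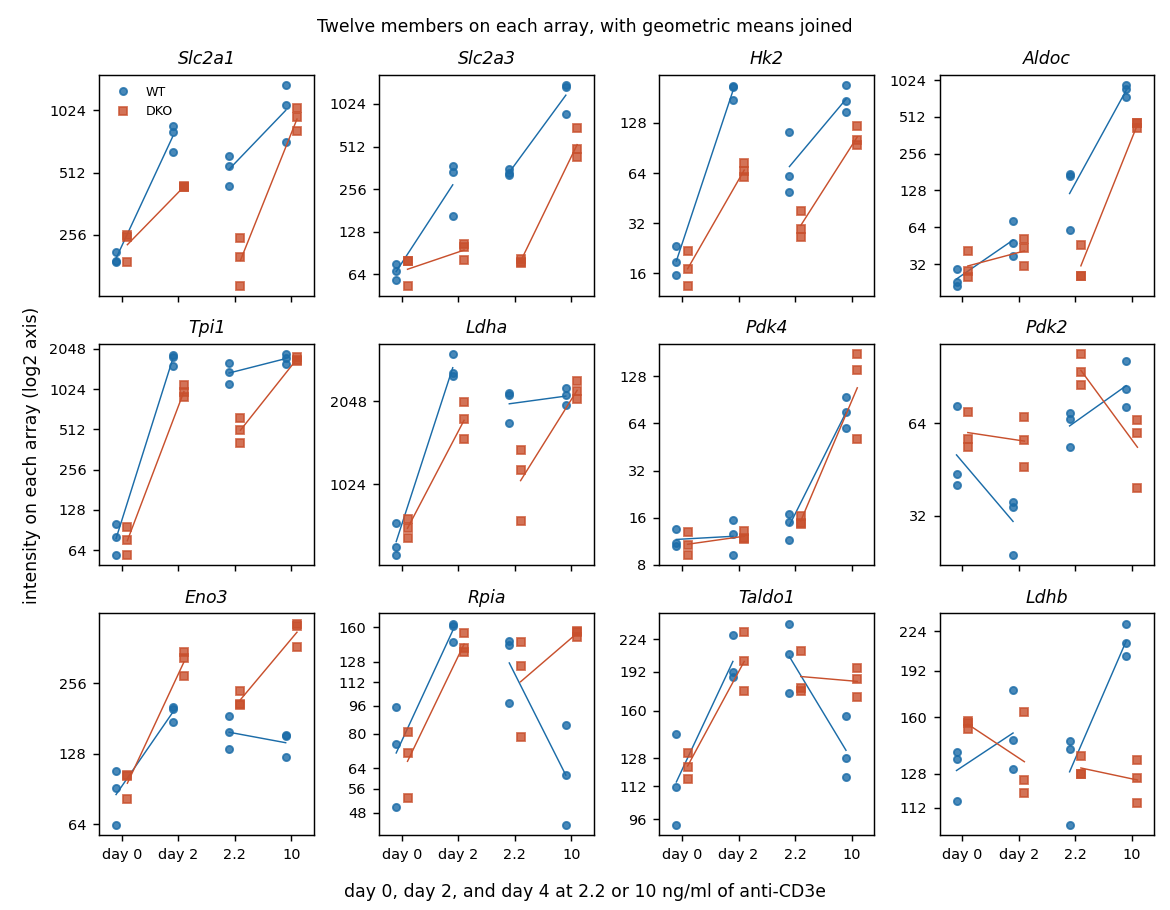
Intensity on each array (log2 axis) of 12 members in WT (blue circles) and DKO (orange squares) cells, with group geometric means joined from day 0 to day 2 and from 2.2 to 10 ng/ml at day 4. Slc2a1, Tpi1 and Ldha have separate genotypes at 2.2 ng/ml that meet at 10 ng/ml. Slc2a3 and Hk2 stay lower in DKO cells, Eno3 stays higher, and Rpia and Ldhb separate at 10 ng/ml.

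The 2 lactate dehydrogenase genes differed in where the genotypes parted. Ldha, the subunit linked to lactate production, read 609, 742 and 565 (day 0), 2599, 3041 and 2529 (day 2), 2153, 1709 and 2199 (2.2 ng/ml) and 2160.1, 1989 and 2283 (10 ng/ml) in WT cells. DKO values were 653, 766 and 714 (day 0), 2034, 1492 and 1762 (day 2), 751, 1154 and 1359.7 (2.2 ng/ml) and 2228, 2435 and 2091 (10 ng/ml). The genotypes were apart at day 2 and 2.2 ng/ml and overlapped at 10 ng/ml. DKO cells were 1.9003-fold (95% CI 1.49 to 2.42) lower at 2.2 ng/ml (adjusted p = 0.00119). The day 2 difference (1.55-fold, adjusted p = 0.0425) was lost without WT day 0 replicate 1, WT day 2 replicate 1, 2 or 3, WT 10 ng/ml replicate 1, DKO day 2 replicate 2 or 3 or DKO 10 ng/ml replicate 1 (adjusted p 0.0113 to 0.188 over the alternatives). Dose raised Ldha 2.13-fold (95% CI 1.67 to 2.71) in DKO cells (adjusted p = 0.000103), while the WT value was 0.09 (95% CI -0.26 to 0.44) on the log2 scale, and the dose effects differed (0.996 ± 0.24, adjusted p = 0.0101).

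Ldhb, the subunit linked to lactate use, read 139, 136 and 115 (day 0), 146, 178 and 130.4 (day 2), 145, 105 and 141 (2.2 ng/ml) and 231, 203 and 214 (10 ng/ml) in WT cells. In DKO cells the arrays gave 158, 156 and 152 (day 0), 125, 119 and 163 (day 2), 128, 128 and 137 (2.2 ng/ml) and 126, 135 and 114 (10 ng/ml). The WT arrays at 10 ng/ml lay above the other 21. It rose 1.66-fold (95% CI 1.36 to 2.04) there against day 0 (adjusted p = 0.000192) and was 1.72-fold (95% CI 1.41 to 2.11) lower in DKO cells (adjusted p = 0.000292). The genotypes differed in the change from day 0 (-1.05 ± 0.20, adjusted p = 0.00113) and in the dose effect (-0.81 ± 0.20, adjusted p = 0.0127), which were kept without each array.

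Of the pyruvate dehydrogenase complex, Pdha1 and Dlat rose in WT cells in the 3 cultured states and in DKO cells at day 2, and Pdhb passed no test. Pdha1, its alpha subunit, read 187, 149.9 and 149 at day 0, 266, 269.6 and 242 at day 2 and 221, 197 and 203 at 10 ng/ml in WT cells. The rise of 1.61-fold at day 2 passed (adjusted p = 1.76e-05) and was kept without each array. Its calls at 10 ng/ml (adjusted p = 0.0131) and 2.2 ng/ml (adjusted p = 0.0186) in WT cells were lost without WT day 0 replicate 2 or 3 or WT 10 ng/ml replicate 1 (adjusted p 0.00283 to 0.303 over the alternatives), and without WT day 0 replicate 2 or 3 or WT 2.2 ng/ml replicate 3 (adjusted p 0.00412 to 0.546 over the alternatives). Dlat, the acetyltransferase subunit, rose 2.11-fold at day 2 in WT cells, from 104, 68.5 and 60.2 to 182, 144 and 154. Its call at 2.2 ng/ml in WT cells was lost without WT day 0 replicate 3 (adjusted p 0.000132 to 0.0792 over the alternatives), and that at 10 ng/ml without WT day 0 replicate 2 or 3 or WT 10 ng/ml replicate 3 (adjusted p 0.000515 to 0.19 over the alternatives). The DKO call of Pdha1 at day 2 was lost without DKO day 2 replicate 2 (adjusted p 0.00747 to 0.192 over the alternatives). Group means of Pdhb, the beta subunit, stayed between 112 and 142. None of the 3 passed a genotype test.

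The 3 measured pyruvate dehydrogenase kinases, which switch the complex off, each had a pattern of their own. Pdk3 rose in every activation comparison, 4.48-fold (95% CI 3.38 to 5.92) in WT and 3.85-fold (95% CI 2.92 to 5.097) in DKO cells at 10 ng/ml. Its values were 35.96, 65.2 and 51.4 at day 0 and 245, 163 and 272 at 10 ng/ml in WT cells, and 51.4, 67.3 and 70.3 and 249, 235 and 238 in DKO cells, with no genotype call. Pdk4 rose above 28.6 at 10 ng/ml alone among the 4 states. WT arrays read 13.5, 10.6 and 10.99 (day 0), 12.7, 9.2 and 15.5 (day 2), 16.95, 11.5 and 15.1 (2.2 ng/ml) and 75.7, 59.8 and 93.6 (10 ng/ml), and DKO arrays 12.9, 10.7 and 9.24 (day 0), 13.2, 11.8 and 11.7 (day 2), 16.5, 14.6 and 14.8 (2.2 ng/ml) and 140.4, 177 and 50.5 (10 ng/ml). The rises over 2.2 ng/ml were 5.25-fold in WT and 7.07-fold in DKO cells (adjusted p = 1.59e-06 and 3.42e-07). The 3 DKO arrays at 10 ng/ml spread widely around the WT values.

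Pdk2 differed between the genotypes in its response to the dose. WT arrays read 72.8, 43.9 and 40.3 (day 0), 23.7, 35.5 and 34.1 (day 2), 69.4, 53.8 and 66.3 (2.2 ng/ml) and 102, 83.1 and 72.1 (10 ng/ml). DKO arrays read 53.7, 56.8 and 69.9 (day 0), 56.6, 46.2 and 67.3 (day 2), 108, 93.97 and 85.6 (2.2 ng/ml) and 65.4, 39.3 and 59.5 (10 ng/ml). From 2.2 to 10 ng/ml it fell 1.78-fold (95% CI 1.304 to 2.43) in DKO cells (adjusted p = 0.0157) and had a log2 value of 0.44 (95% CI -0.01 to 0.89) in WT cells, and the difference between these passed (-1.27 ± 0.31, adjusted p = 0.0107) and was kept without each array. The fall in DKO cells was lost without DKO 2.2 ng/ml replicate 1 or DKO 10 ng/ml replicate 2 (adjusted p 0.00647 to 0.138 over the alternatives). Pdk2 was 1.83-fold higher in DKO cells at day 2 (adjusted p = 0.0282), lost without WT day 2 replicate 1 or DKO day 2 replicate 1 or 3 (adjusted p 0.0125 to 0.165 over the alternatives), and 1.59-fold lower at 10 ng/ml (adjusted p = 0.0449), lost without WT day 2 replicate 3, WT 10 ng/ml replicate 1 or 2, DKO day 0 replicate 2, DKO day 2 replicate 1, DKO 2.2 ng/ml replicate 2 or DKO 10 ng/ml replicate 2 or 3 (adjusted p 0.02 to 0.289 over the alternatives). In WT cells it fell 1.65-fold at day 2 against day 0, lost without WT day 0 replicate 1 or WT day 2 replicate 1 (adjusted p 0.00303 to 0.103 over the alternatives). Its rise over day 0 at 10 ng/ml in WT cells (1.68-fold) was lost without WT day 0 replicate 3 or WT 10 ng/ml replicate 1 (adjusted p 0.000677 to 0.065 over the alternatives), and that at 2.2 ng/ml in DKO cells (1.596-fold) without DKO day 0 replicate 1 or 2 or DKO 2.2 ng/ml replicate 1 or 2 (adjusted p 0.00659 to 0.113 over the alternatives).

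In the pentose phosphate pathway Tkt and Pgd were raised over day 0 in WT cells at 10 ng/ml, and Rpia and Taldo1 did not pass the test there. Tkt, transketolase of the nonoxidative branch, read 117, 128 and 85.8 (day 0), 538, 512 and 486 (day 2), 427, 329 and 469.5 (2.2 ng/ml) and 407, 349.8 and 562 (10 ng/ml) in WT cells. The DKO arrays gave 114, 130.1 and 97.7 (day 0), 464, 412 and 374 (day 2), 251, 274 and 344 (2.2 ng/ml) and 458, 515 and 496 (10 ng/ml). All cultured arrays lay above all naive arrays, and the rise at 10 ng/ml was 3.96-fold (95% CI 3.08 to 5.09) in WT and 4.33-fold (95% CI 3.37 to 5.57) in DKO cells. Pgd, phosphogluconate dehydrogenase of the oxidative branch, rose 3.08-fold in WT and 1.98-fold in DKO cells at day 2. It was 1.62-fold lower in DKO cells at day 2 (adjusted p = 0.0438), a call lost without each of 10 of the 24 arrays, most of all DKO day 2 replicate 3 (adjusted p 0.0173 to 0.244 over the alternatives).

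Rpia, ribose phosphate isomerase, which makes the ribose of nucleotides, read 95.2, 74.7 and 49.6 (day 0), 145, 161 and 164 (day 2), 147, 97.5 and 143 (2.2 ng/ml) and 44.3, 61.1 and 84.7 (10 ng/ml) in WT cells. DKO cells gave 52.7, 80.9 and 70.5 (day 0), 140.1, 136 and 154 (day 2), 78.2, 124 and 145 (2.2 ng/ml) and 151, 156 and 155 (10 ng/ml). WT arrays at 10 ng/ml overlapped the naive arrays, whereas the 3 DKO arrays stood close together well above them. The dose lowered Rpia 2.07-fold (95% CI 1.47 to 2.92) in WT cells (adjusted p = 0.00279) and had a log2 value of 0.46 (95% CI -0.04 to 0.95) in DKO cells. At 10 ng/ml DKO cells were 2.52-fold (95% CI 1.79 to 3.55) higher (adjusted p = 0.000288). The genotypes differed in the dose effect (1.51 ± 0.34, adjusted p = 0.00582) and in the change from day 0 to 10 ng/ml (1.41 ± 0.34, adjusted p = 0.00953), and these calls were kept without each array.

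Taldo1, transaldolase, is the other enzyme of the nonoxidative branch measured here with a dose-related fall in WT cells. WT arrays read 112, 144 and 93.4 (day 0), 187, 229 and 192 (day 2), 241, 174 and 209 (2.2 ng/ml) and 117, 128 and 156 (10 ng/ml), and DKO arrays 123, 131 and 116 (day 0), 202, 176 and 232 (day 2), 178, 176 and 212 (2.2 ng/ml) and 186, 195 and 170.3 (10 ng/ml). The dose lowered Taldo1 1.55-fold (95% CI 1.24 to 1.94) in WT cells (adjusted p = 0.00531), and at 10 ng/ml all DKO arrays lay above all WT arrays, by 1.38-fold (95% CI 1.11 to 1.73) (adjusted p = 0.0492). That genotype call was lost without each of 16 of the 24 arrays, most of all WT 10 ng/ml replicate 1 (adjusted p 0.0146 to 0.224 over the alternatives), and the difference in the dose effect did not pass (0.60 (95% CI 0.15 to 1.06)).

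Tests of the genotype difference in the rise from day 0 called 5 members at day 2, all with a smaller rise in DKO cells (0.742% of all genes), and 4 at 10 ng/ml, 2 in each direction (2.64% and 3.88% of all genes). The day 2 calls were Slc2a3 (-1.59 on the log2 scale, adjusted p = 0.0193), Slc16a1, Hk2, Pfkl and Pfkp, and none was kept without each array. Slc2a3 was lost without WT day 0 replicate 1, WT day 2 replicate 1 or 2, DKO day 0 replicate 2 or DKO day 2 replicate 3 (adjusted p 0.000621 to 0.07 over the alternatives). The 5 became 1 without WT day 2 replicate 1 or 2, and 2 without WT day 0 replicate 1 or 3, without any DKO day 0 array, or without DKO day 2 replicate 2 or 3. For 10 ng/ml, Eno3, Ldhb and Rpia were kept without each array.

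The balance within the set also differed between the earlier and the later cultures. Between day 2 and 10 ng/ml at day 4, 8 members rose and 7 fell in WT cells (10.3% and 12.9% of all genes), and 11 rose and 0 fell in DKO cells (3.43% and 1.75%), where 1 member, Slc16a1, lay lower at an unadjusted p under 0.05 (limma). The rises in WT cells were led by Aldoc (16.8-fold), Pdk4 (6.17-fold) and Slc2a3 (4.302-fold), and the falls by Rpia (2.56-fold) and Slc16a1 (2.37-fold), with Pgd, Taldo1, Dlat, Pfkl and Pdha1 falling 1.26-fold to 1.69-fold. The fall of Pfkl was lost without WT day 2 replicate 1 or 2 or WT 10 ng/ml replicate 1 or 2 (adjusted p 0.0201 to 0.246 over the alternatives), and that of Pdha1 without WT day 2 replicate 1 or 2 or WT 10 ng/ml replicate 2 or 3 (adjusted p 0.0218 to 0.517 over the alternatives). In DKO cells the corresponding values were 10.8-fold for Aldoc, 8.85-fold for Pdk4 and 5.57-fold for Slc2a3. Among the DKO rises, Aldoa lost its call without any single DKO day 2 or DKO 10 ng/ml array (adjusted p up to 0.0793, limma). Pfkl lost its call without DKO day 2 replicate 2, and Tpi1 without DKO day 2 replicate 3. The WT rise of Ldhb was lost without WT day 2 replicate 3. The other probe set of Ldhb did not pass for this rise (0.31 on the log2 scale, adjusted p = 0.141, limma fit of all probe sets). Whether the genotypes differed in the change from day 2 to 10 ng/ml was not tested. Time and anti-CD3e concentration both may differ between the day 2 and 10 ng/ml groups and cannot be told apart. The mean level was highest at WT 10 ng/ml for 13 members, at WT day 2 for 9 and at DKO 10 ng/ml for 3. How all genes divide among the groups in this way was not counted.

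Other genes of the same pathways were read from a second list. Of 28 listed, 22 were measured, and the other 6 were not analysed here. In WT cells at 10 ng/ml 10 of the 22 rose and 3 fell against day 0 (18.4% and 18% of all genes). Between genotypes 1 was lower and 0 higher in DKO cells at day 2 (limma; 3 and 1 at an unadjusted p under 0.05; 1.68% and 1.03% of all genes called). At the low dose 2 were lower and 0 higher (3 and 0 unadjusted; 2.06% and 1.65%), and at 10 ng/ml 2 were lower and 1 higher (6.09% and 6.68%). Pgm1, phosphoglucomutase, which links glycogen to glycolysis, read 50.1, 39.1 and 40.7 (day 0), 87.3, 125 and 88.8 (day 2), 91.9, 60.95 and 71.9 (2.2 ng/ml) and 323, 310 and 363 (10 ng/ml) in WT and 42.1, 42.2 and 30.1 (day 0), 59.5, 65.8 and 64.9 (day 2), 41.2, 53.5 and 48.3 (2.2 ng/ml) and 144, 134 and 163 (10 ng/ml) in DKO cells. It rose 7.696-fold in WT cells at 10 ng/ml and was 2.26-fold lower in DKO cells there (adjusted p = 1.39e-05). Of 17 measured genes of the tricarboxylic acid cycle, which burns the acetyl groups from pyruvate, 12 rose and 1 fell at 10 ng/ml in WT cells. Between genotypes limma called 0 at day 0, day 2 and 2.2 ng/ml, where at an unadjusted p under 0.05 DKO cells were higher in 4 at day 0, lower in 6 at day 2 and apart in 0 at 2.2 ng/ml. At 10 ng/ml 1 was called higher and 2 lower in DKO cells. The shares of all genes are those given for the second list, and 0.0652% at day 0. These shares are for adjusted calls. The share of all genes at an unadjusted p under 0.05 was not computed, so the unadjusted counts cannot be set against them.

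Hif1a was lower in DKO cells in the 3 cultured states, and Myc passed no genotype test. Myc read 999, 965 and 882 (day 0), 2386, 2329 and 2537 (day 2), 1283, 1259 and 1571 (2.2 ng/ml) and 1557, 1758 and 2051 (10 ng/ml) in WT and 893, 912 and 899 (day 0), 1640.5, 2138 and 1949.7 (day 2), 1128, 1496 and 1436 (2.2 ng/ml) and 1644, 1737 and 1668 (10 ng/ml) in DKO cells. It rose in WT cells (1.88-fold at 10 ng/ml, adjusted p = 3.7e-06). Hif1a read 246, 233 and 196 (day 0), 569, 595 and 527 (day 2), 662, 748 and 821 (2.2 ng/ml) and 1759, 1799 and 1796 (10 ng/ml) in WT cells. DKO values were 251, 274 and 301 (day 0), 417, 389 and 382 (day 2), 359, 398 and 361 (2.2 ng/ml) and 346, 314 and 358 (10 ng/ml). DKO arrays at 10 ng/ml lay far below WT arrays, by 5.27-fold (95% CI 4.48 to 6.19) (adjusted p = 9.74e-14), and the dose effect was 2.41-fold in WT cells and had a log2 value of -0.14 (95% CI -0.37 to 0.10) in DKO cells (-1.40 ± 0.16 for the difference, adjusted p = 2.19e-06). The dose effect on the Hif1a transcript in DKO cells did not pass the test. The part of Hif1a in the changes of the members was not tested, and protein was not measured here. Of 13 measured hypoxia response genes, 11 rose with the dose in WT and 8 in DKO cells (7.64% and 4.47% of all genes). Egln3, a prolyl hydroxylase that is itself induced by hypoxia, rose 3.34-fold with the dose in WT and 11.9-fold in DKO cells and was 9.399-fold lower in DKO cells at 2.2 ng/ml and 2.65-fold lower at 10 ng/ml. Txnip, an inhibitor of glucose uptake, read 1549.7, 1732 and 1765 in naive WT cells and 194, 187 and 206 at day 2, a fall of 8.59-fold (adjusted p = 2.75e-10).

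**Figure D5:**
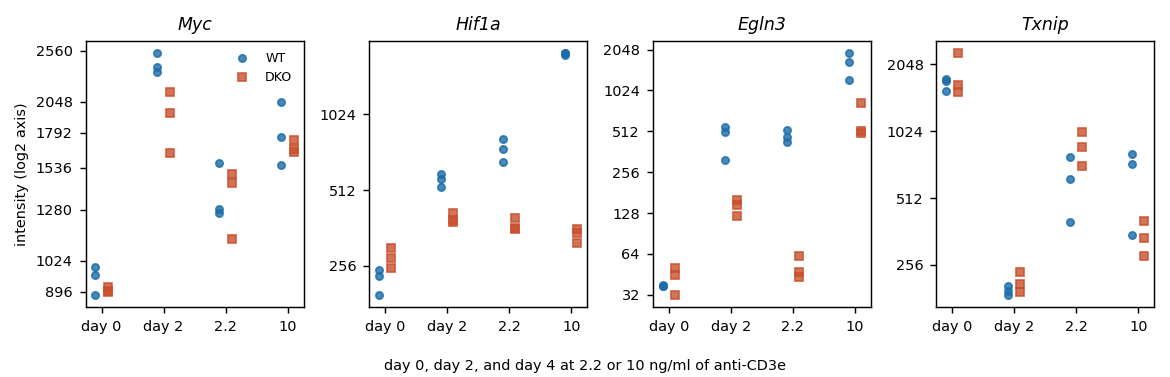
Intensity on each array (log2 axis) of Myc, Hif1a, Egln3 and Txnip in WT (blue circles) and DKO (orange squares) cells by state. Hif1a and Egln3 are lower on every DKO array than on every WT array of the 3 cultured states, and the Myc arrays of the genotypes overlap in every state but day 2.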

How the data were processed

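RNA of naive CD4 T cells and of TH2 cultures was measured on 24 single-channel arrays, 3 in each of 8 groups. The deposited values are linear intensity values per probe set that the authors made with RMA, per the submitters' processing notes, so background correction and scaling between arrays were already done. Log2 was taken before testing. Of 35556 probe sets, 21789 had 1 gene symbol, 1621 several and 12146 none, and 21698 of the former matched RefSeq by identifier. The brightest probe set by mean log2 over the 24 arrays stood for each of 19938 genes, 999 of which had several. One limma (3.58.1, R 4.3.3) model with 8 group means (16 residual degrees of freedom) gave 17 contrasts, with Benjamini-Hochberg adjustment over all genes in each and a threshold of 0.05. Intervals are 95%. The number of arrays limits the precision, and no detection calls were used. The steps were tested on simulated data for DKO against WT at 2.2 ng/ml: of 50 changed genes each, 16 were recovered at a log2 change of 0.5, 45 at 1 and 50 at 2 or 3, with 3 false among 164 calls. The members, gene lists and tests were chosen with earlier results of these data known. All 34 members could be named, with values per array for the member with the smallest p in each role, for those called in a genotype difference of changes, and for those moving against their role. Whether related genes or pseudogenes share probe signal was not tested. Alternatives changed the probe set rule, the dim filter, the normalization, the arrays fitted, the moderation, the array weights and the replicate block, and left out each array in turn.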

Additional observations from a re-analysis of the deposited data

Results flagged for a closer look

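The 22 values listed here were picked out because a test of the difference itself found that DKO and WT cells changed by different amounts (limma, adjusted p under 0.05 over all genes). Each is the log2 change in DKO cells minus that in WT cells.

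For the change from day 0 to day 2 the values were -1.59 for Slc2a3, -1.08 for Slc16a1, -1.43 for Hk2, -0.98 for Pfkl and -0.85 for Pfkp. For the change from day 0 to 10 ng/ml they were -1.21 for Slc2a3, 1.41 for Eno3, -1.05 for Ldhb and 1.41 for Rpia. All 5 day 2 values and the 10 ng/ml value of Slc2a3 lost the call when single arrays were left out, as described above.

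For the change from 2.2 to 10 ng/ml the transporters Slc2a1 and Slc16a3 stood at 1.32 and 1.30. The phosphofructokinases Pfkl and Pfkp stood at 1.34 and 0.70. Among lower glycolysis genes the values were 0.85 for Aldoa, 1.41 for Tpi1, 0.65 for Pgk1, 1.11 for Eno3 and 0.65 for Pkm. Ldha stood at 0.996, Ldhb at -0.81, Pdk2 at -1.27 and Rpia at 1.51. Of these 13 values, those of Pfkp, Aldoa and Pkm lost the call when single arrays were left out, as described above.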

How the results depend on the processing

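Of 257 member calls in the 17 comparisons, 203 were kept under all 34 alternatives, 54 were lost under at least 1, and 0 reversed. A fit of only the groups compared lost 24 calls, cyclic loess 20 and quantile normalization 19. Leaving out WT 2.2 ng/ml replicate 3 and WT day 2 replicate 3 together lost 17. Where losses are tied above to single arrays, the ranges of adjusted p also cover these alternatives, under which some of the same calls were lost. Counts of called members stayed within 1.5 times the reported ones in all but the comparisons given here. For the genotype difference in the change to day 2, the 5 calls became 3 when cyclic loess was added, 2 under quantile normalization and 3 in a fit of only the groups compared, and ran from 1 to 6 when single arrays were left out. For DKO against WT they ran from 4 to 13 at day 2 (12 reported) and from 4 to 9 at 10 ng/ml (8 reported). The cause of these shifts was not tested. Hk2 and Ldha at 2.2 ng/ml lost their calls with the compared groups alone (adjusted p = 0.0549 and 0.0516, limma; 0.00048 to 0.0549 and 0.00029 to 0.0516 over the alternatives). Cyclic loess moved the median of all genes by 0.106 for WT day 2 and 0.103 for WT 10 ng/ml against day 0. Same-numbered arrays of different groups mostly did not deviate together (84 pairs, r from -0.152 to 0.264, 4 over 0.1), so the numbers were not taken as pairs. The highest values, 0.264 and 0.162, joined replicates 3 and 2 of WT 2.2 and WT 10 ng/ml, and their replicate 1 gave 0.0545. Mean deviations of the members in replicates 1, 2 and 3 were 0.028, -0.130 and 0.102 at WT 2.2 ng/ml. At WT 10 ng/ml they were 0.034, -0.158 and 0.123. The WT dose comparison was fitted unpaired, and whether these arrays share a culture is not stated. With the replicate block, 4 of the 257 calls were lost: Ldha and Pgd at day 2 and Pgam1 and Taldo1 at 10 ng/ml, each DKO against WT, where 10 and 7 members were then called. Genes at or below an intensity of 28.6 have uncertain fold changes.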
